A study of Mus musculus with 35 samples.

Results

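The nuclear genes for the subunits of the respiratory chain and of ATP synthase were followed across 7 groups of mouse colon. A gene belonged to the set when its symbol began with Nduf and one of the letters a, b, c, s or v before a digit, was Sdha, Sdhb, Sdhc or Sdhd, or began with Uqcr, with Cox and a digit from 4 to 8, or with Atp5. The array table held 81 such genes among the 19908 genes that a probe set named alone: 35 of complex I, 4 of complex II, 8 of complex III, 17 of complex IV and 17 of complex V. The rule itself reads symbols only. All 81 were found in the RefSeq gene table by their Entrez number. Ndufa4 and Ndufv1, which mark the set, were measured on every array.

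The respiratory chain sits in the inner mitochondrial membrane. Complex I takes electrons from NADH and complex II takes them from succinate, and both pass them through ubiquinone to complex III. Complex III hands them to cytochrome c, and complex IV, cytochrome c oxidase, uses them to reduce oxygen to water. Complexes I, III and IV pump protons, and complex V, ATP synthase, lets the protons flow back and makes ATP. Colonocytes are known to feed this chain to a large extent with butyrate made by gut bacteria. The core subunits that the mitochondrial genome itself encodes were not analysed here.

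Colon tissue came from 35 C57BL/6N mice in 7 groups of 5, and 200 ng of total RNA per mouse was hybridised to Affymetrix Mouse Gene 1.0 ST arrays. Conventional mice were wild-type or carried a Reg3a transgene, and were left untreated or drank 3% dextran sodium sulfate (DSS), a chemical that injures the colon lining, for 5 days followed by water, with tissue taken at day 12. Axenic mice, reared without microbes, received gut flora from wild-type or from Reg3a-transgenic donors 3 weeks before the same DSS course. A further axenic group that got DSS is called the axenic controls. Its label places DSS before microbial transfer, so it is unclear whether and when these mice carried flora before tissue was taken. Every axenic mouse had DSS, so no axenic group free of DSS enters a comparison. The transgene's promoter and species of origin, and the sex, cage and array batch of each mouse, are not stated. The tissue was bulk colon, although the series title speaks of epithelial cells, so fewer cells of a type and less RNA per cell cannot be told apart. Nothing in the labels says more than that the mice of a group were separate mice. The p-values set differences between groups against the spread between mice within them. Any variation between flora donors, cages or array batches that goes with a group is not covered by them.

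The deposited values are log2 signals after RMA, per the submitters' processing notes. RMA with its usual quantile step leaves arrays with near-equal distributions, but here the standard deviation over all probe sets of an array (the array SD) ran from 1.64 to 2.03. It was lowest in the axenic controls, at 1.73 ± 0.05 (mean ± SD, n = 5), and highest in the recipients of wild-type flora, at 1.96 ± 0.06. In the other groups it was 1.87 ± 0.08 in untreated and 1.87 ± 0.12 in DSS-treated wild-type mice, 1.83 ± 0.06 in untreated and 1.90 ± 0.07 in DSS-treated transgenic mice, and 1.83 ± 0.10 with transgenic flora. Bright probe sets were higher together on arrays where it was large. Depth has no counterpart on arrays, and their number, 5 per group, limits the precision.

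The upstream regions of 4 members that the results turn on are shown first. Ndufa4 was the single member called under DSS in wild-type mice, Ndufs8 and Uqcrc1 were among the called members that were lowest in the axenic controls, and Cox7a1 had the smallest p between genotypes under DSS. Each sequence runs 5′ to 3′ from 250 bases before to 50 bases after the transcript start in RefSeq on GRCm38.p6. The windows are chr6:11907401-11907700 on the minus strand for Ndufa4, chr19:3912725-3913024 on the minus strand for Ndufs8, chr9:108936398-108936697 on the plus strand for Uqcrc1 and chr7:30183921-30184220 on the plus strand for Cox7a1. Capitals mark a match on either strand to 1 of 4 motifs that are textbook features of nuclear genes for mitochondrial proteins: GCGCANGCG (the core recognised by NRF1), CCGGAAG (recognised by ETS factors such as GABP), AAGATGGCG (recognised by YY1) and CAAGGTCA (recognised by estrogen-related receptors).
Ndufa4: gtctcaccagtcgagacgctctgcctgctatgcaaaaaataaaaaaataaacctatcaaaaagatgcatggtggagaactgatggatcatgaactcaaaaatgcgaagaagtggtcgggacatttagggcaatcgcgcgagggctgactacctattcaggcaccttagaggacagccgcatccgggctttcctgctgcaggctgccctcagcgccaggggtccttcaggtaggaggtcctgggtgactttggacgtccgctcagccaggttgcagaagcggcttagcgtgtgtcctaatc
Ndufs8: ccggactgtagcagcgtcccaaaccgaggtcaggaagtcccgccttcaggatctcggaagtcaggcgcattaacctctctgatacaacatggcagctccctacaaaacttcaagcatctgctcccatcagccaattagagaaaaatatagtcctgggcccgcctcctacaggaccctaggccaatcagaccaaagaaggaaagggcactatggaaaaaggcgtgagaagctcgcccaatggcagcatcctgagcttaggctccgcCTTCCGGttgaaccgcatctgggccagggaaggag
Uqcrc1: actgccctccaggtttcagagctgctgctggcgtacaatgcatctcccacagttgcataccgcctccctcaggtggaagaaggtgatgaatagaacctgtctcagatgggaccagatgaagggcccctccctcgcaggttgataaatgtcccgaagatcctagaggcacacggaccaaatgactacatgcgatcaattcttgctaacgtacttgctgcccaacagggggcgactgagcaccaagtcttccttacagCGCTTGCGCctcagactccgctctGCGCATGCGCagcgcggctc
Cox7a1: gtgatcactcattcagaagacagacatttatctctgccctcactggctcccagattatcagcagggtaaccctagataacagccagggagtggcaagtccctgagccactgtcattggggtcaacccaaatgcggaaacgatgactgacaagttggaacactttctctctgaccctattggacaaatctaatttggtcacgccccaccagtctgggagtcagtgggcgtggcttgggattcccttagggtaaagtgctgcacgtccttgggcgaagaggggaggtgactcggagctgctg
The Uqcrc1 window held NRF1 core matches on both strands, which overlap each other in the second capital run, and the Ndufs8 window held 1 ETS match. All of them lie after the transcript start. None of the 4 letter strings was in the windows of Ndufa4 and Cox7a1.

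Of the 81 members, 66 had an entry in the promoter table, and some of them had several start sites. The NRF1 core was present for 19 of the 66 (28.8%), against 7.03% of the 27025 genes in the table. The members with it included Sdha, Sdhd, Uqcr11 and Atp5c1. The ETS string was present for 17 of 66 (25.8%) against 9.93% of all genes, among them Sdhb, Uqcrh, Atp5e and Atp5md. The YY1 string was present for 7 of 66 (10.6%) against 1.64%, and those 7 were in complexes I and V, Ndufa9 and Ndufs4 included. The string of the estrogen-related receptors was present for 4 of 66 (6.06%) against 1.76%. Any of the 4 was present for 35 of 66 members (53%) and for 18% of all genes. These are matches of letters and describe the windows only.

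Averaged over the 81 members, the log2 signal per mouse was lowest in the axenic controls and highest in the axenic recipients of wild-type flora. The group means were 9.89 ± 0.10 in untreated wild-type mice, 9.84 ± 0.08 in untreated transgenic mice, 9.91 ± 0.28 in DSS-treated wild-type mice and 9.94 ± 0.14 in DSS-treated transgenic mice (mean ± SD, n = 5 each). Among the axenic mice, all DSS-treated, they were 10.06 ± 0.13 after transfer of wild-type flora and 9.71 ± 0.15 after that of transgenic flora. The axenic controls had 9.52 ± 0.28. The 4 conventional groups overlapped each other. The 5 recipients of wild-type flora (9.89 to 10.20) all lay above the 5 controls (9.16 to 9.77), and above the 5 recipients of transgenic flora (9.49 to 9.88).

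**Figure D1:**
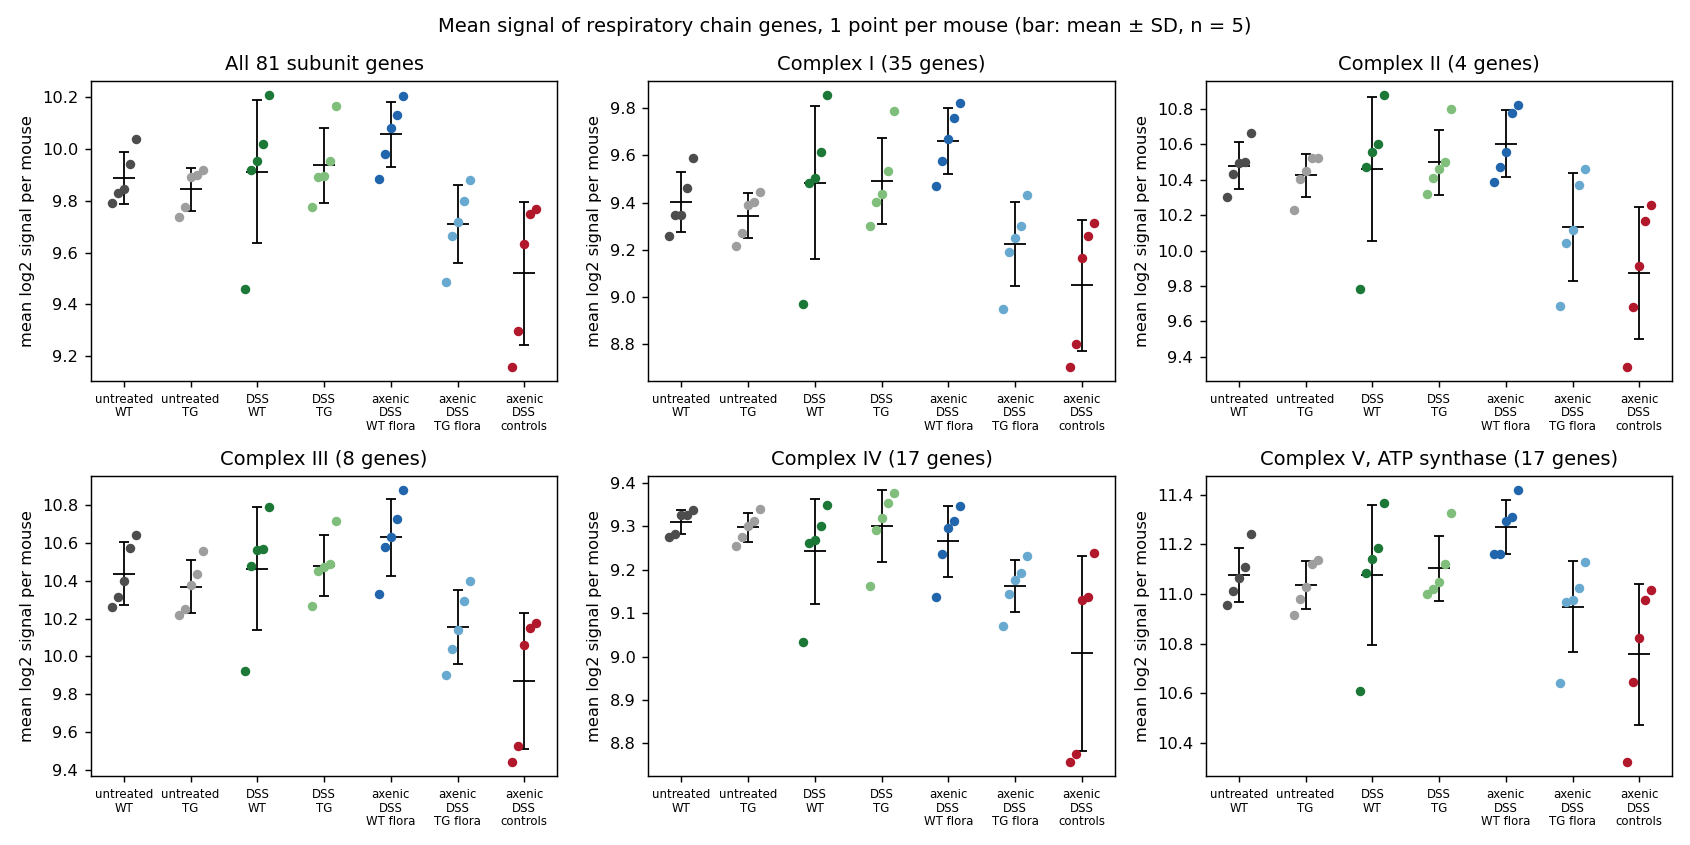
Mean log2 signal per mouse (vertical axis) of all 81 subunit genes and of the genes of each complex, by group (horizontal axis, WT wild-type, TG Reg3a-transgenic); points are mice and bars are the mean ± SD of 5 mice. The axenic controls had the lowest group mean in all 6 panels, and the vertical axes do not start at 0.

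Gene by gene, the lowest of the 7 group means fell on the axenic controls for 55 of the 81 members. The highest fell on the recipients of wild-type flora for 50 of 81. Next came transgenic flora, lowest for 10 members, and untreated wild-type mice, highest for 12. The shares of all genes with these extremes were not counted. By complex, the controls were lowest for 21 of 35 members of complex I, 4 of 4 of complex II, 6 of 8 of complex III, 11 of 17 of complex IV and 13 of 17 of complex V. In limma's moderated F test over the 7 groups, 59 of the 81 members differed at an adjusted p under 0.05, where 54.2% of all genes did. They were 24 of 35 in complex I, 3 of 4 in complex II, 7 of 8 in complex III, 13 of 17 in complex IV and 12 of 17 in complex V. With the array SD as a covariate 30 members were called, against 38.8% of all genes. Uqcrh, the hinge protein of complex III that contacts cytochrome c1, had the smallest adjusted p in that fit (0.000202), followed by Ndufb9, an accessory subunit of the membrane arm of complex I (0.000241), and Uqcrc2, a core protein of complex III (0.000859).

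The mean of the members in a mouse followed the SD of its array. Over the 35 mice Pearson's r was 0.82 (Spearman's rho 0.78), given as a description with no test, since each mouse's mean and SD come from the same array. It was 0.69 (rho 0.65) after the group means were subtracted, 0.79 within the conventional mice and 0.85 within the axenic mice. Without the 2 arrays farthest from the median SD, a control mouse (SD 1.64) and a transgenic-flora mouse (SD 1.66), it was 0.76. With the SD taken over probe sets that were not members it was 0.82. After quantile normalization of the 35 arrays it was 0.50. The mean of all genes outside the set had an r of 0.83 with the array SD, and of 0.70 with group means subtracted. For the 1938 brightest of these genes (mean signal from 9.21 up) the values were 0.97 and 0.95. The member mean thus followed the array SD no more closely than these means did.

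**Figure D2:**
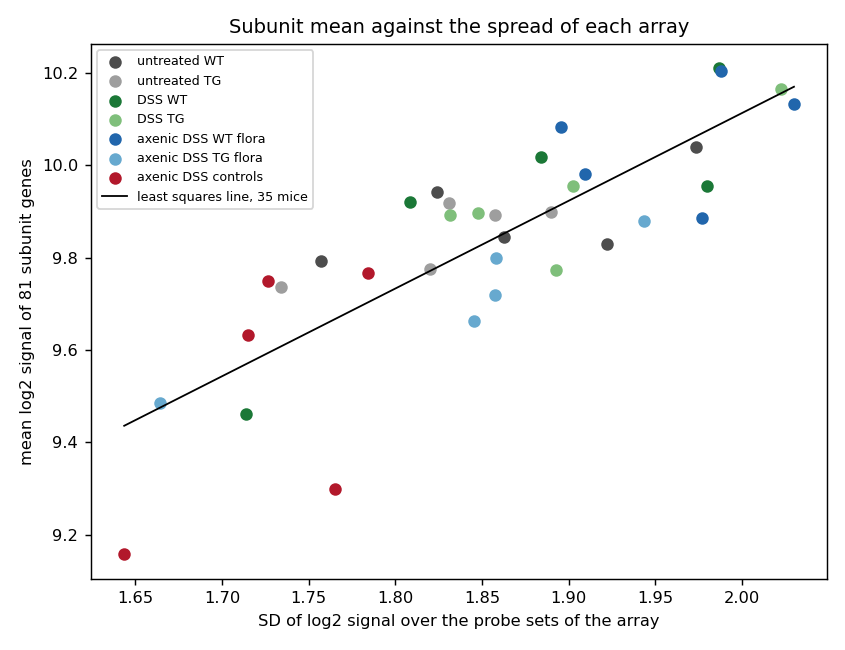
Mean log2 signal of the 81 subunit genes (vertical axis) against the SD of log2 signal over all probe sets of the same array (horizontal axis), 1 point per mouse, coloured by group, with a least squares line over 35 mice. The points rise together (r = 0.82), and 2 of the axenic controls lie furthest below the line.

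Distances from that line are the part of the member mean that the array SD does not carry. The recipients of transgenic flora lay below it in 4 of 5 mice, at a group mean of -0.088 ± 0.068 on the log2 scale, and the axenic controls were spread from -0.37 to 0.16 around a mean of -0.074. The other 5 groups had mean distances between 0.015 and 0.061. Untreated and DSS-treated transgenic mice lay above the line in 4 of 5 each.

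The complexes did not follow the array SD to the same degree. The r of the mean of a complex with the array SD was 0.84 for complex I, 0.84 for complex II, 0.77 for complex III, 0.50 for complex IV and 0.86 for complex V. Within complex IV, the 10 subunits found in all tissues had an r of 0.70. The mean of the 8 isoforms restricted to particular tissues (Cox4i2, Cox6a2, Cox6b2, Cox7a1, Cox7b2, Cox8b, Cox8c and, outside complex IV by its symbol, Ndufa4l2) had an r of -0.83. The value of complex IV is thus a mixture of common subunits and tissue-restricted isoforms, most of the isoforms dim. Cox6a2 (mean signal 7.55, r = -0.95) and Cox7a1 (9.07, r = 0.63) were brighter than the other isoforms.

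Single members ranged from an r of -0.95 (Cox6a2, the heart and skeletal muscle form of subunit 6a) to 0.93 (Atp5j, coupling factor 6 of ATP synthase), with a median of 0.65. Of the 81, 54 were over 0.5 and 7 were below 0, and those 7 were tissue-restricted isoforms. The r of genes outside the set also differed with signal. Their median r was -0.71 in the dimmest 10% of genes by mean signal and 0.72 in the brightest 10%, where 53 of the 81 members lay. The members there had a median r of 0.73. In the 10% of genes next below in signal, 15 members had a median r of 0.45 and the 1976 other genes one of 0.73.

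**Figure D3:**
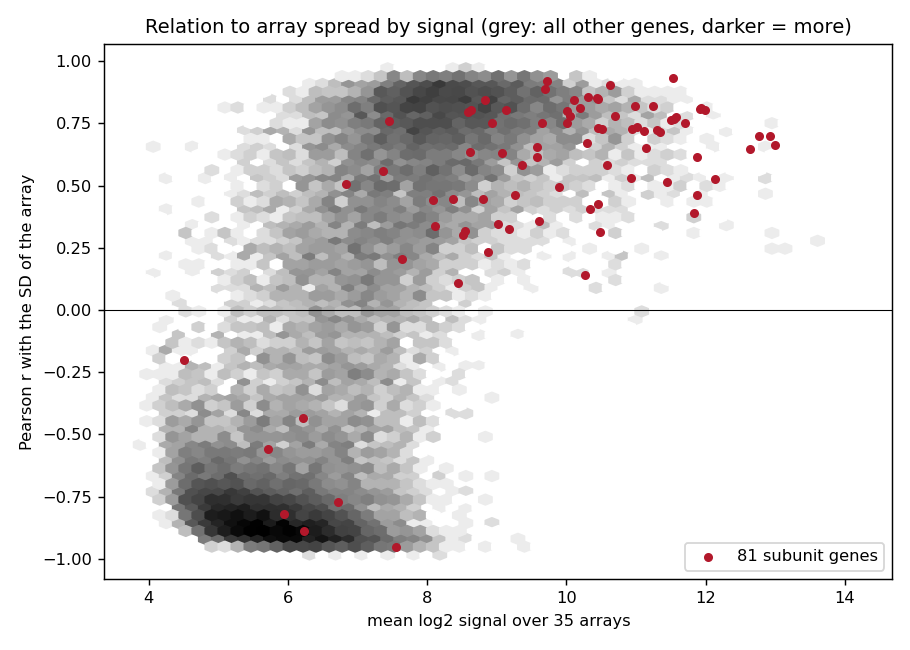
Pearson r of each gene with the array SD over 35 mice (vertical axis) against its mean log2 signal (horizontal axis); red points are the 81 subunit genes and grey hexagons are all other genes, darker where there are more, on a log scale of counts. Members in the brightest 10% of genes sit above 0. The 7 members below 0 are tissue-restricted isoforms, most of them dim, with Cox6a2 the brightest of them at a mean signal of 7.55.

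Members also moved with each other. The median r over the 3240 pairs of members was 0.56, and it was 0.31 once the array SD was taken out of each. The r of a member with the mean of the others was over 0.5 for 72 of 81 and below 0 for 7. Among genes outside the set, the 5 whose values followed the member mean most closely were Vil1 (r = 0.95), which encodes villin of the epithelial brush border, Decr2, Ap1m2, Mfn2, a mitochondrial fusion protein, and Ap1b1 (r = 0.93). With the array SD held fixed, the partial r of Vil1 was 0.84. The mean of the 15 colon epithelium markers, Vil1 among them, had an r of 0.87 with the member mean, and 0.87 with group means subtracted. Its r with the array SD was 0.64. What part the epithelial share of the tissue had in the member means was not tested beyond the covariate fits given below.

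With DSS in wild-type mice, members differed in both directions and 1 was called. With 5 mice per group this does not show that the set was unchanged. The median log2 difference of the 81 members between DSS-treated and untreated wild-type mice was -0.0035 (all genes -0.025), with 40 members above 0 and 41 below. In limma with Benjamini-Hochberg adjustment over all genes, 1 of 81 members passed an adjusted p of 0.05, where 5.13% of all genes did in either direction and 3% were called higher. Groups did not overlap for the same 1 member, against 6.16% of all genes.

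That member was Ndufa4, first described as part of complex I and now known as a subunit of complex IV. Its log2 signal was 8.03, 8.22, 8.30, 8.52 and 8.67 in the 5 untreated wild-type mice and 8.73, 8.94, 9.38, 9.72 and 9.82 in the 5 that drank DSS. Every treated mouse lay above every untreated one, with the closest pair 8.67 and 8.73. The difference was 0.97 (SE 0.22, adjusted p = 0.0281 by limma). It lost the call when any of 6 mice (untreated 7, 9, 10 and 11, DSS 52 and 53) was left out and with the smooth muscle covariate (1.06), with values from 0.84 to 1.11 over the omissions of single mice. With the array SD as a covariate it was 0.96. The leukocyte markers moved in the same comparison, 5 of 9 called higher with a median of 1.54, as did 4 of 6 fibroblast markers. Their means had an r of 0.27 and 0.29 with Ndufa4 over the 35 mice, and of -0.096 and -0.17 with group means subtracted. The epithelium mean had an r of 0.38, and of 0.47 with group means subtracted. The part of these cell types in its change was not tested.

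In transgenic mice the log2 difference of Ndufa4 with DSS was 0.33 (SE 0.24, adjusted p = 0.388), with untreated mice at 8.09, 8.19, 8.53, 9.08 and 9.32 and treated mice at 8.57, 8.78, 8.97, 9.12 and 9.42. These groups overlapped over most of their range. The difference between the DSS effects of the genotypes, -0.64 (SE 0.35), had an adjusted p of 0.766, so a difference between genotypes in this response was not shown. No member was called for DSS in transgenic mice, where 4.55% of all genes were. At an unadjusted p under 0.05 there were 12 members (14.8%, all genes 26.2%), and the median difference was 0.091 against -0.015 over all genes. In the brightest 10% of genes it was 0.085 over 53 members and 0.16 over the others, and over the 81 members it was -0.051 with the array SD as a covariate. The groups did not overlap for 2 members, where 8.7% of all genes did not. Ndufa2, an accessory subunit of complex I, was 0.48 higher (adjusted p = 0.058) and Cox8c, the testis form of subunit 8, 0.38 lower (-0.38, adjusted p = 0.064).

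The interaction of genotype and DSS gave 0 called members of 81 by limma, with 1 at an unadjusted p under 0.05 (1.23%, all genes 7.42%), against 0.156% of all genes called. That 1 member was Cox7a1, the muscle form of subunit 7a of cytochrome c oxidase. Its log2 signal was 8.87, 9.40, 9.45, 9.55 and 9.56 in untreated wild-type mice and 7.70, 8.74, 8.92, 9.07 and 9.54 after DSS. In transgenic mice it was 8.56, 9.18, 9.31, 9.52 and 9.70 untreated and 9.54, 9.63, 9.67, 9.72 and 9.85 after DSS. The genotypes overlapped after DSS, where the highest wild-type mouse lay just above the lowest transgenic one, both at 9.54 after rounding. The DSS effect was -0.57 (SE 0.29) in wild-type and 0.43 (SE 0.18) in transgenic mice, and their difference, 1.00 (SE 0.36), had an adjusted p of 0.415. Cox7a1 followed the epithelium markers (r = 0.81) more closely than the smooth muscle markers (r = 0.50) over the 35 mice. The epithelium marker mean was 11.41 ± 0.38 in DSS-treated wild-type mice, with mouse 55 at 10.74, and 11.71 ± 0.06 in DSS-treated transgenic mice. The part of these markers in the Cox7a1 values was not tested.

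Transgenic and wild-type mice were not told apart by any member, with or without DSS. By limma 0 of 81 were called in untreated mice (0.0753% of all genes) and 0 in DSS-treated mice (0.00502%). The groups did not overlap for 0 members in either setting, against 1.12% and 1.57% of all genes. At an unadjusted p under 0.05 there was 1 member in each: Ndufs4, a complex I subunit whose loss causes Leigh syndrome in people, at -0.54 (SE 0.24) in untreated mice, and Cox7a1 at 0.89 (SE 0.27, adjusted p = 0.566) in DSS-treated mice. All genes gave 5% and 5.17%. The medians of the members were -0.055 and 0.021.

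**Figure D4:**
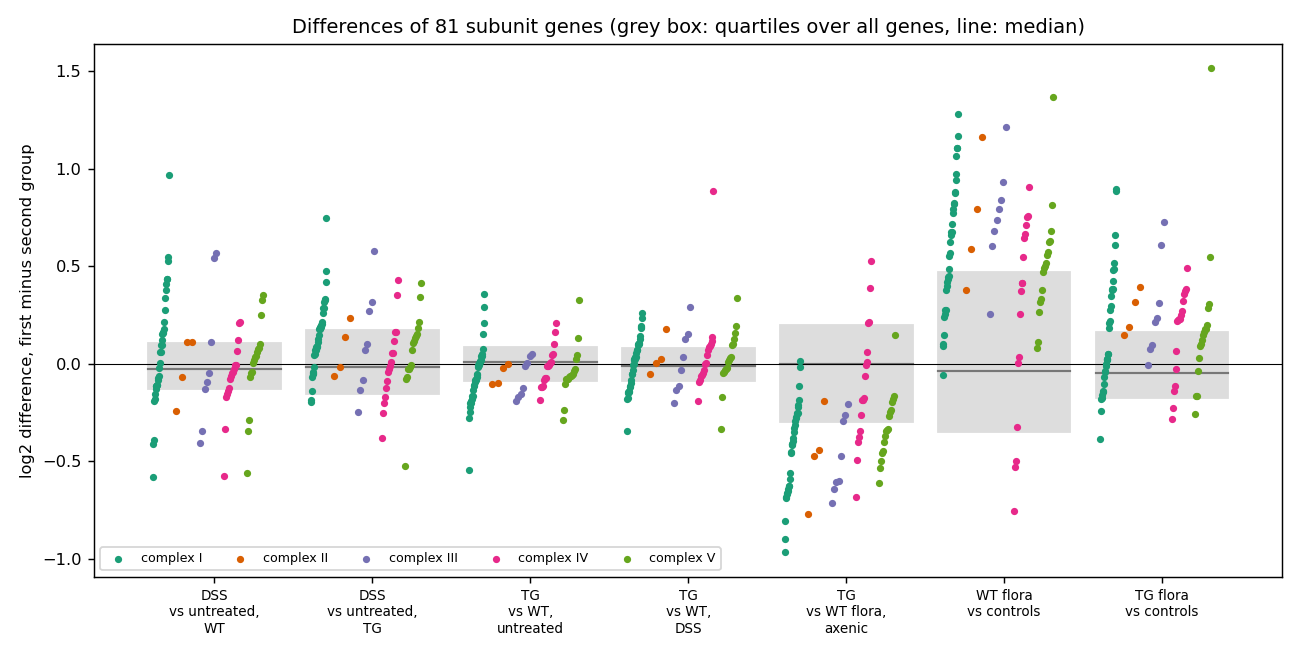
Log2 difference (vertical axis) of each of the 81 subunit genes, coloured by complex, in the 7 comparisons of 2 groups (horizontal axis, WT wild-type, TG transgenic); grey boxes span the quartiles of all 19908 genes tested and the grey line is their median. Most members lie below 0 for transgenic against wild-type flora (median -0.34) and most above 0 for wild-type flora against controls (median 0.57).

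Most members had lower signals in axenic recipients of transgenic flora than in those of wild-type flora, without any passing the adjusted threshold. Of the 81 members 73 had a negative log2 difference, and the median was -0.34 against -0.0014 over all genes. Limma called 0 members and 0% of all genes, and the smallest adjusted p among members was 0.0695. At an unadjusted p under 0.05 there were 52 members (64.2%, all genes 34.4%). The groups did not overlap for 15 members, all lower with transgenic flora, where 7.43% of all genes did not overlap in either direction. In the brightest 10% of genes the median was -0.35 over 53 members and -0.33 over the 1938 other genes. In the 10% next below it was -0.60 over 15 members and -0.37 over the 1976 others. The array SD was lower with transgenic than with wild-type flora, at 1.83 and 1.96.

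By complex, the median difference was -0.41 for complex I, -0.46 for complex II, -0.54 for complex III, -0.17 for complex IV and -0.34 for complex V. Atp5e, the epsilon subunit in the central stalk of ATP synthase, had the smallest p. Its log2 signal was 8.56, 8.79, 8.83, 8.86 and 8.87 with wild-type flora and 8.08, 8.10, 8.15, 8.26 and 8.27 with transgenic flora. No values overlapped, and the difference was -0.61 (SE 0.09, adjusted p = 0.0695). The axenic controls, at 7.82 to 8.54, spanned the transgenic-flora values.

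Ndufa4 was 8.72, 9.30, 9.45, 9.69 and 9.70 with wild-type flora and 8.11, 8.21, 8.38, 8.46 and 8.88 with transgenic flora. Only the highest mouse of the second group passed the lowest of the first, and the difference was -0.97 (SE 0.20, adjusted p = 0.0695). Ndufa1, a small membrane subunit of complex I, differed by -0.90 (SE 0.20), Sdhb, the iron-sulfur subunit of complex II, by -0.77 (SE 0.19) and Cox4i1, the common form of subunit 4, by -0.68 (SE 0.18), all at the same adjusted p. Called members were 13 when the wild-type-flora mouse with the lowest epithelium marker mean (11.21) was left out, and 40 without the transgenic-flora mouse with the highest array SD (1.94). These fits called 0.748% and 23.6% of all genes. Called members were 22 when all 35 arrays shared 1 model (all genes 9.68%) and 45 with array weights (all genes 24.5%). Smooth muscle markers were lower in the same comparison (median -0.70 over 10 measured, none called), as were 15 epithelium markers (median -0.27), 6 fibroblast markers (median -0.27) and 7 pancreatic acinar markers (median -2.06), none of them called. Their part in the member values was not tested beyond the covariate fits. With the array SD as a covariate the median of the members was -0.16.

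Axenic recipients of wild-type flora had higher signals of most members than the axenic controls. Limma called 61 of 81 members, 57 higher and 4 lower, in a comparison where 67.3% of all genes were called, 32.1% higher and 35.2% lower. The median log2 difference was 0.57 against -0.034 over all genes. The groups did not overlap for 38 members, against 44.7% of all genes. Bright genes as a whole were higher: in the brightest 10% 45 of 53 members were called higher with a median of 0.63, and 76% of the 1938 other genes with a median of 0.64. The 2 groups also had the highest and the lowest array SD, and with the array SD as a covariate 0 members and 0.00502% of genes were called by limma and the median of the members was 0.13. Flora and the array SD cannot be told apart in these 10 mice.

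In complex I, 25 of 35 members were called higher and none lower, where 32.1% of all genes were called higher and 35.2% lower. Of the other genes in the brightest 10%, 76% were called higher. Groups did not overlap for 44.7% of all genes in this comparison. Ndufs8, an iron-sulfur subunit in the arm that carries electrons to ubiquinone, had a log2 signal of 9.37, 9.59, 9.71, 9.84 and 10.14 in controls and of 10.69, 10.71, 10.78, 10.87 and 10.94 with wild-type flora. Every recipient was above every control, and the difference was 1.07 (SE 0.13, adjusted p = 0.000241). Ndufs4 had the largest difference of complex I, from 9.73, 9.97, 10.06, 10.41 and 10.51 to 10.98, 11.09, 11.28, 11.69 and 12.03, at 1.28 (SE 0.21, adjusted p = 0.000805). Ndufv1, the subunit that binds NADH and flavin, rose by 1.1 (SE 0.22, adjusted p = 0.00171), from 8.19, 8.91, 9.03, 9.47 and 9.52 to 9.89, 10.11, 10.15, 10.22 and 10.27. Ndufa9 and Ndufa10, accessory subunits, rose by 1.17 and 0.77. Ndufs1, the largest iron-sulfur subunit, rose by 0.62 (SE 0.16) but stood at -0.19 with the array SD as a covariate.

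In complex II, 3 of 4 members were called higher, where 32.1% of all genes and 76% of other genes in the brightest 10% were. Sdhb was 8.35, 8.47, 9.09, 9.17 and 9.28 in controls and 9.58, 9.93, 9.97, 10.30 and 10.39 with wild-type flora, groups that did not overlap, and differed by 1.16 (SE 0.21, adjusted p = 0.00118). The membrane anchor Sdhd rose by 0.79 and the flavoprotein Sdha by 0.59, and the other anchor, Sdhc, at 0.38, did not pass (adjusted p = 0.0661). Sdha stood at -0.21 with the array SD and at -0.12 with the epithelium markers as a covariate.

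In complex III, 7 of 8 members were called higher, where 32.1% of all genes and 76% of other genes in the brightest 10% were. Uqcrc1, a core protein of the matrix side, was 9.05, 9.60, 9.62, 9.87 and 10.38 in controls and 10.54, 10.83, 11.04, 11.05 and 11.13 with wild-type flora, and differed by 1.21 (SE 0.21, adjusted p = 0.000966). Every recipient lay above every control. Uqcrh rose by 0.93, the Rieske iron-sulfur protein Uqcrfs1 by 0.84 and Uqcrc2 by 0.61, the last at -0.10 with the array SD as a covariate. Uqcrb, at 0.25 (adjusted p = 0.254), did not pass.

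Complex IV was split. Of its 17 members 10 were called higher and 4 lower, where 32.1% and 35.2% of all genes were. The 4 called lower were the tissue-restricted isoforms Cox6a2, Cox8b, Cox8c and Cox4i2, a form of subunit 4 known from lung. Among common subunits, Cox4i1 rose by 0.91 (SE 0.27), Cox7a2 by 0.75, Cox5a by 0.71 and Cox5b by 0.41. Cox4i1 stood at -0.10 and Cox5b at -0.10 with the epithelium markers as a covariate, and Cox5b at -0.029 with the array SD. Cox7a1, alone among the tissue-restricted isoforms, was called higher, by 0.67 (SE 0.24, adjusted p = 0.0268 by limma), and stood at -0.15 with the epithelium covariate.

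Cox6a2 had the largest decrease. Its log2 signal was 7.63, 7.85, 7.95, 8.04 and 8.16 in controls and 7.04, 7.10, 7.11, 7.29 and 7.32 with wild-type flora, groups that did not overlap, a difference of -0.75 (SE 0.11, adjusted p = 0.000432). In the same comparison, which called 35.2% of all genes lower, 7 of 9 striated muscle markers fell. Among them Mb (myoglobin) differed by -0.61 and Myh1 by -0.56 on the log2 scale. Cox6a2 had an r of 0.85 with the mean of these markers over the 35 mice and of -0.95 with the array SD, and the marker mean itself had an r of -0.91 with the array SD. The mean of the 9 markers ran from 6.66 to 6.95 in the controls and from 6.24 to 6.52 with wild-type flora. Quantile normalization left Cox6a2 at -0.91 and called, and the array SD as a covariate left it at -0.17, not called. Cox8b stood at 0.019 with that covariate. Cox6b2 and Cox7b2, forms known from testis, were at 0.0046 and 0.034 and were not called.

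In complex V, 12 of 17 members were called higher, where 32.1% of all genes and 76% of other genes in the brightest 10% were. Atp5g1, which encodes the c subunit of the rotating ring, was 11.22, 11.48, 11.49, 11.68 and 11.72 in controls and 12.29, 12.29, 12.31, 12.35 and 12.44 with wild-type flora, and differed by 0.82 (SE 0.10, adjusted p = 0.000236). These groups did not overlap and the second was the tighter. Atp5a1 and Atp5b, subunits of the catalytic head, rose by 0.52 and 0.32. Atp5o, the stalk protein that confers oligomycin sensitivity, rose by 0.68 and stood at -0.17 with the epithelium covariate. The gamma subunit of the rotor, Atp5c1, at 0.33, did not pass (adjusted p = 0.0984).

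Atp5md, a small membrane subunit also called DAPIT, rose most in complex V, by 1.37 (SE 0.35, adjusted p = 0.00626), and had the widest spread. It was 8.96, 9.83, 10.08, 10.08 and 11.29 in controls and 11.03, 11.22, 11.34, 11.36 and 12.10 with wild-type flora, so that the highest control passed 2 recipients. Its SD was 0.41 in that recipient group and 0.64 to 1.08 in the other 6. With transgenic flora it was 9.90, 11.79, 11.82, 12.13 and 12.17.

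**Figure D5:**
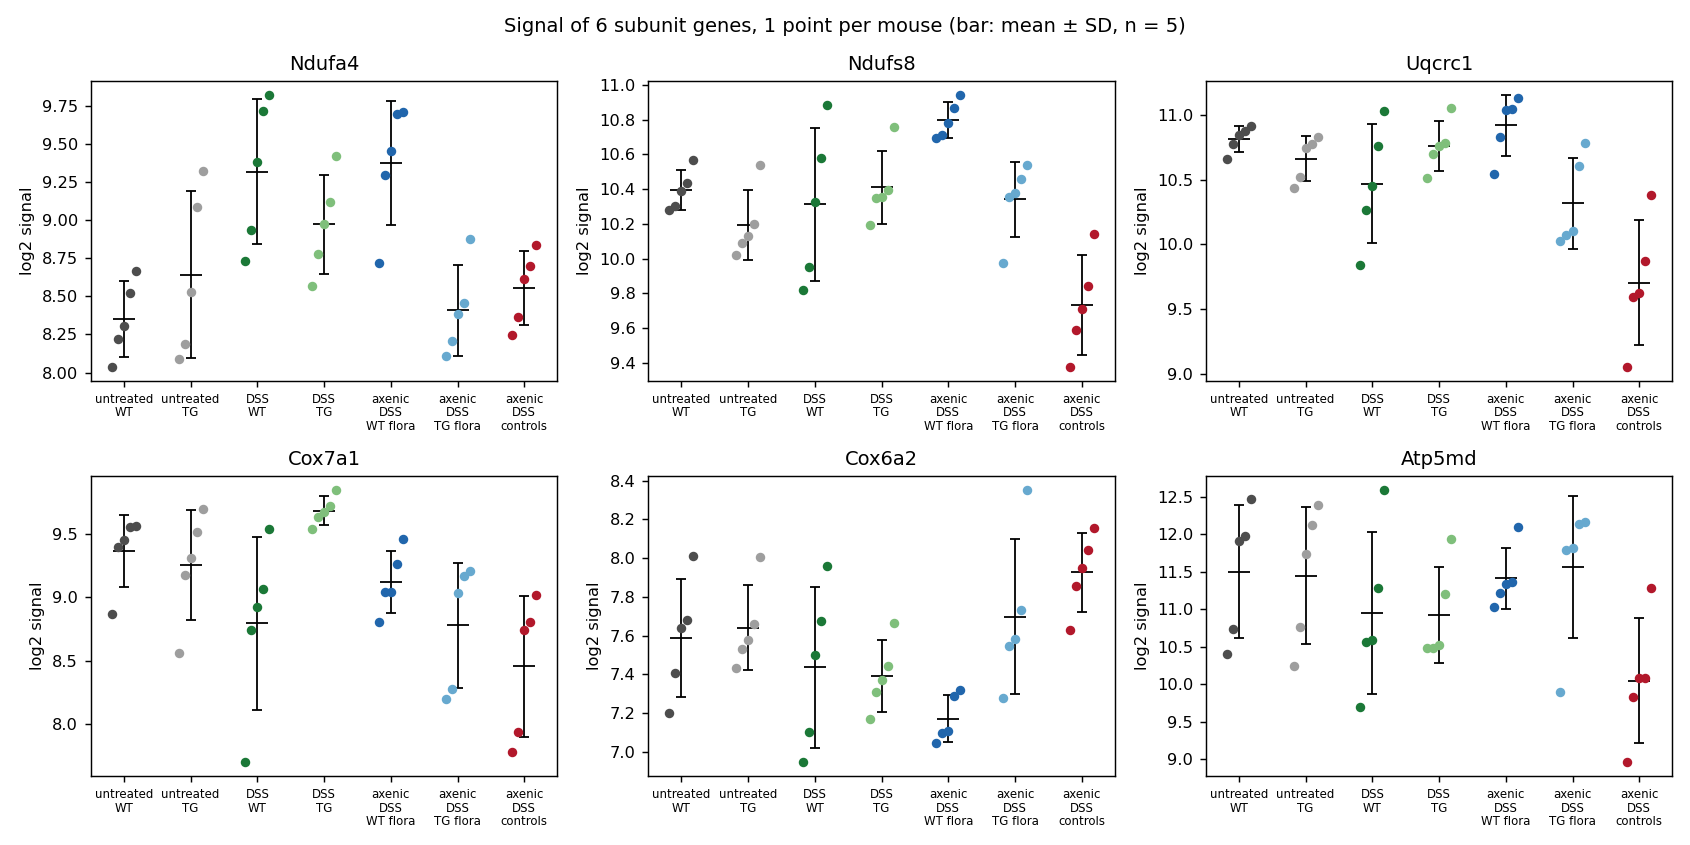
Log2 signal (vertical axis) of Ndufa4, Ndufs8, Uqcrc1, Cox7a1, Cox6a2 and Atp5md by group (horizontal axis, WT wild-type, TG transgenic); points are mice, bars are the mean ± SD of 5 mice, and the axes do not start at 0. Ndufs8 and Uqcrc1 are lowest in the axenic controls, where Cox6a2 is highest.

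The axenic controls compared with the recipients of transgenic flora gave a smaller difference. This comparison and the preceding one share the 5 controls, so their values are only set side by side. Limma called 0 of 81 members (0.337% of all genes), with 14 at an unadjusted p under 0.05 (17.3%, all genes 18.1%). The median was 0.18, with 58 members above 0, against 0.57 with wild-type flora. The groups did not overlap for 1 member, Ndufs4, where 2.75% of all genes did not. Ndufs4 was 10.77, 10.86, 10.87, 11.33 and 11.34 with transgenic flora, all above the highest control at 10.51, and differed by 0.90 (SE 0.17, adjusted p = 0.0633). Ndufs8 differed by 0.61 (SE 0.15, adjusted p = 0.113), Atp5g1 by 0.55 (SE 0.15), Uqcrh by 0.73 (SE 0.20) and Atp5md by 1.52 (SE 0.48, adjusted p = 0.16). Without the transgenic-flora mouse whose array SD of 1.66 was the lowest outside the controls, 14 members and 26.7% of all genes were called. With the smooth muscle markers as a covariate 44 were, 42 higher and 2 lower, and the median was 0.54, in a fit that called 37.4% of all genes. The smooth muscle mean was 9.84 ± 0.32 in these recipients and 10.42 ± 0.32 in the controls.

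Other genes of mitochondrial energy metabolism were counted in lists beside the members. For wild-type flora against the axenic controls, limma called 32.1% of all genes higher and 35.2% lower. Among genes outside the set, 76% of those in the brightest 10% and 77.6% of those in the 10% next below were called higher. Of 44 measured assembly factors and subunits outside the symbol rule, 30 were called higher and 1 lower (median 0.41). Of the enzymes of pyruvate dehydrogenase and the citrate cycle 14 of 17 rose (median 0.65), and of glycolysis and lactate handling 13 of 15 (median 0.85), Hk2 (hexokinase 2) by 1.79. Electron carriers and transporters rose in 9 of 13 and fell in 1, with Cycs (cytochrome c) up by 0.59. Regulators of mitochondrial transcription and biogenesis rose in 8 of 14, Tfam, the packaging factor of mitochondrial DNA, by 0.56. The means of these 5 lists had an r of 0.86 to 0.94 with the array SD. For DSS in wild-type mice, where 5.13% of all genes were called, the same lists gave 1 of 44 and 0 of 17. The others gave 1 higher and 1 lower of 15, 1 of 13 and 1 lower of 14.

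Markers of cell types moved in the axenic comparison too, where 32.1% of all genes were called higher and 35.2% lower. For wild-type flora against the controls 10 of 15 epithelium markers were called higher (median 0.68), Vil1 by 1.09, as were 8 of 9 leukocyte markers (median 1.35), 4 of 6 fibroblast markers (median 0.92) and 7 of 7 pancreatic acinar markers (median 2.83), Cela3b among them by 3.12. Brown fat markers were called lower in 3 of 5 (median -0.46), as were markers of enteric neurons and glia in 3 of 5 (median -0.25). None of 10 smooth muscle and 6 endothelium and pericyte markers was called. With the epithelium marker mean as a covariate, 10 members were called (6 higher and 4 lower, all genes 30.2%) and the median of the members was 0.053. Ndufs4 kept a difference of 1.33 and Ndufs8 one of 0.69 in that fit, both called. Means of the epithelium markers ran from 10.17 to 11.17 in the controls and from 11.21 to 11.75 in the recipients, without overlap. Flora and the epithelium marker mean thus cannot be told apart in these mice, and the fit with that covariate does not separate them.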

How the data were processed

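Affymetrix Mouse Gene 1.0 ST arrays measured total RNA of the colon of 35 mice. The deposited values are log2 signals per probe set that the authors made with RMA in Affymetrix Expression Console 1.1, per the submitters' processing notes. RMA corrects background, normalizes between arrays and summarises probes; it compresses differences of dim probe sets, and array SDs still differed between 1.64 and 2.03. Nothing was subtracted or rescaled here.

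Of 28090 probe sets, 21639 were named by 1 gene symbol in the platform annotation, 1539 by several and 4912 by none. Each of 19908 genes was represented by its probe set of highest mean signal. Members followed the symbol rule. The members and the gene lists were chosen with earlier results of these data known.

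Each comparison was fitted on its own groups in limma 3.58.1 (R 4.3.3; lmFit and eBayes, two-sided), with Benjamini-Hochberg adjustment over all genes and calls at 0.05. The procedure was tested on simulated arrays with independent noise per gene. No difference in array SD was built into them, so they do not bear on calls that move with the array SD. Standard errors come from the limma fits of the comparisons. A count of non-overlapping groups needs every mouse of one group above every mouse of the other. Python 3.11.15, pandas 2.3.3 and matplotlib 3.10.9 made summaries and plots. Promoters are from RefSeq (GRCm38.p6).

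Genes named were, in each comparison, the called members (at most 10 per direction by p, or the 5 of smallest p where fewer than 5 were called), up to 4 genes of each list by p, the brightest and dimmest member of each complex, core subunits and tissue-restricted isoforms; for likeness, the 5 genes on each side by r with the member mean. Other members named (among them Uqcrh, Uqcrb, Ndufb9 and Atp5md for wild-type flora against controls) were chosen after their values were seen. Cell type markers were lists for epithelium, smooth and striated muscle, fibroblasts, leukocytes, endothelium, enteric neurons and glia, brown fat and acinar pancreas.

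Alternatives were quantile normalization, the array SD, epithelium markers or smooth muscle markers as a covariate, array weights, all 35 arrays in 1 model, a trended robust variance, the mean of a gene's probe sets, a filter at the 40th percentile of signal, leaving out the 7 arrays of lowest SD, and leaving out each mouse. No replicate numbers pair mice across groups.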

Additional observations from a re-analysis of the deposited data

Results flagged for a closer look

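In groups of 5 mice, a value was singled out when its gap to the nearest mouse exceeded 0.71 of the group's range. This was tested in 161 sets of 5 values (the means of the members and of each complex, and 17 members, in 7 groups) and found 10, where chance gives about 1 in 20. DSS-treated wild-type mouse 55 was lowest for the mean of complex IV (9.03, next 9.26) and for Uqcrh (10.53, next 11.41), and its array SD of 1.71 was the lowest of the conventional mice. DSS-treated transgenic mouse 44 was lowest for Ndufa1 (7.80, next 8.73) and Cox4i1 (10.09, next 10.78), with an array SD of 1.89, close to its group's mean of 1.90. The wild-type-flora mouse with the lowest epithelium marker mean of its group (11.21) was lowest for Cox4i1 (10.05, next 10.82) and for Atp5b (12.94, next 13.15). The transgenic-flora mouse with the lowest array SD (1.66) was lowest for Atp5md (9.90, next 11.79). Another wild-type-flora mouse was lowest for Atp5e (8.56, next 8.79), untreated wild-type mouse 9 was lowest for Cox7a1 (8.87, next 9.40) and untreated transgenic mouse 28 was highest for Sdhb (10.30, next 9.67).

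Ndufc2, a membrane subunit of complex I, was singled out because its 5 values with wild-type flora all lay above the mean of the axenic controls (0.28 higher on average) and its 5 values with transgenic flora all lay below it (-0.18). It was the 1 member of 81 with such a pattern, in a search that also covered DSS effects in the genotypes. The share of all genes with it was not counted. The direct difference between the flora groups was -0.45 (SE 0.11, adjusted p = 0.0695 by limma), which did not pass.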

How the results depend on the processing

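For wild-type flora against controls, 61 called members became 27 after quantile normalization (all genes 36.0%), 0 with the array SD as a covariate (0.00502%) and 10 with the epithelium covariate (30.2%), and the median of 0.57 became 0.28, 0.13 and 0.053. Omitting single mice gave 55 to 66. The sign turned with the array SD for Cox5b (-0.029), Cox8b (0.019), Ndufs1 (-0.19), Sdha (-0.21) and Uqcrc2 (-0.10), and with the epithelium covariate for Atp5o (-0.17), Cox4i1 (-0.10), Cox5b (-0.10), Cox7a1 (-0.15) and Sdha (-0.12). Neither covariate can be told apart from flora in this comparison, and the cause was not tested.

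For transgenic against wild-type flora, 0 called members became 45 with array weights (all genes 24.5%) and 22 when the 35 arrays shared a model (9.68%), and 0 to 40 when single mice were left out (13 without the wild-type-flora mouse of lowest epithelium marker mean, 40 without the transgenic-flora mouse of highest array SD). The median of -0.34 became -0.18 after quantile normalization, -0.16 with the array SD, -0.13 with the smooth muscle and -0.10 with the epithelium covariate. For transgenic flora against controls, 0 became 6 with all 35 arrays (all genes 3.32%), 13 with array weights (33.4%), 1 above the 40th percentile of signal (0.77%) and 44 with the smooth muscle covariate (37.4%, median 0.54), and 0 to 14 by omission (14 without the recipient of lowest array SD).

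For DSS in wild-type mice, 1 called member became 3 after quantile normalization (all genes 8.07%), 11 with the array SD (4 higher and 7 lower, 17.9%), 2 without the 7 arrays of lowest SD (5.99%), 3 with all 35 arrays (9.39%), 30 with array weights (29.4%), 0 with the smooth muscle (1.72%) and 4 with the epithelium covariate (9.74%), and 0 to 3 by omission (3 without DSS mouse 55). In transgenic mice 0 became 1 after quantile normalization (all genes 5.85%), 7 with array weights (16.4%) and 0 to 3 by omission (3 without DSS mouse 47, 1 without DSS mouse 44), and the median of 0.091 became -0.051 with the array SD. For the interaction, 0 became 1 with array weights (1.17%), and the median of 0.080 became -0.11 with the epithelium covariate. For genotype under DSS, 0 became 1 with array weights (1.7%). Over the 7 groups 59 became 37 after quantile normalization (all genes 42.2%), 30 with the array SD (38.8%) and 25 with the epithelium covariate (27.5%), and 49 to 66 by omission.

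The r of 0.82 became 0.76 without the 2 farthest arrays and 0.69 with group means subtracted. It became 0.50 after quantile normalization of the member values, with the SD of the deposited values, and 0.79 to 0.84 by omission. The other settings left counts within 1.5 times, and of 618 values of named genes 528 kept direction and side of the threshold and 80 kept direction only. No paired analysis was possible because the mouse numbers are not shared between groups. The dim isoforms are limited most by signal close to background, for which no detection values were used here.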

Other observations

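Some probe sets name a subunit gene together with a pseudogene or a near-identical copy and were kept out of the 81 members. The 3 probe sets shared by Cox7c and Gm12338 had group means of 12.37, 12.52 and 12.68 in the axenic controls, the lowest of the 7 groups in each case, and of 12.73, 12.86 and 12.95 with wild-type flora. The 2 probe sets shared by Ndufb4 and Ndufb4b were at 10.27 and 10.73 in the controls and at 11.15 and 11.54 with wild-type flora, and were highest in untreated wild-type mice, at 11.19 and 11.59. The 1 probe set shared by Ndufs5 and its pseudogene was at 6.79 in the controls and 7.15 with wild-type flora. Signals of the copies cannot be told apart by these probe sets. Their r with the array SD was between 0.72 and 0.80.

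Of the members, 16 had several probe sets. The 24 probe sets not used had a median r of 0.98 with the one used, over 35 mice, and the lowest was 0.67 for Atp5pb. Sizes of differences were not always alike. For wild-type flora against controls, Cox7a2l differed by 0.25 with the probe set used and by 0.66 with the other (r = 0.79).

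Genes that ran opposite to the member mean most closely over the 35 mice were Ftmt (r = -0.89), a mitochondrial ferritin, Nmur1, Txndc2, Rnf183 and Spink2 (r = -0.88). Their r with the array SD was between -0.94 and -0.84.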
